A study of Mus musculus with 71 samples.

Results

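The α-defensin genes of the mouse, named Defa and a number, were followed through every RNA table of a study of mice that lack Btnl2, a butyrophilin-like gene of the gut epithelium. All genes whose symbol begins with Defa were taken, with no use of their measured values. Of 40 such symbols in RefSeq, 31 had a row among the 24475 identifiers of each bulk table, 28 of them protein-coding and 3 pseudogenes, and 33 had at least 1 row among the 25127 rows of the single-cell tables. The 28 coding genes lie together within 710 kb of chromosome 8 (GRCm38).

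α-Defensins are small cationic peptides with paired disulphide bonds that permeabilise bacterial membranes. In the mouse they are made by Paneth cells at the base of small intestinal crypts, stored in granules as pro-peptides, cleaved by the protease matrilysin (Mmp7) and released into the crypt lumen. Mouse neutrophils lack them, and the healthy colon has few or no Paneth cells. The family grew by repeated gene duplication, so that several members differ by only a few bases, and a branch called cryptdin-related sequences 1C (CRS1C) encodes peptides with a different cysteine arrangement.

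Btnl2-KO mice (Btnl2-/-, a LacZ cassette joined in frame to the start codon, with a selection cassette) and wild-type (WT) mice, all on C57BL/6, were compared without challenge, and per the study's methods they were cohoused female littermates. Small intestine tissue (7 WT and 7 Btnl2-KO libraries) and colon tissue (6 and 7) came from mice labelled YNG, read here as young, with no age in weeks given. Intestinal epithelial cells (IECs) came from mice of 7 weeks, with 3 WT and 2 Btnl2-KO libraries of duodenum, 3 and 3 of jejunum, and 2 and 3 of ileum. γδ intraepithelial lymphocytes (γδ IELs), sorted as CD45+ TCRβ- TCRγδ+ cells, came from mice of 10 weeks, with 4 and 3 libraries of duodenum, 4 and 4 of jejunum, and 4 and 3 of ileum, each from 2 pooled mice.  Single γδ IELs from mice of 8 to 10 weeks gave 1 library per segment and genotype, pooled from part of the sorted cells. Which tissue or IEC libraries came from separate mice is not stated in the labels. Nor do the labels state which γδ IEL libraries of different segments shared a pool of mice. The fits treated all libraries as independent, so the p-values measure only the spread between these libraries. Library totals were 13619400 to 21708800 counts in tissue, 15397800 to 38258500 in IECs and 13445000 to 30029500 in γδ IELs.

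Some libraries carried marker genes that went against their label. Fabp6, an ileal bile acid binding protein, and Gata4, a transcription factor of the proximal small intestine, marked the segments. Among IECs, the library labelled duodenum Btnl2-KO replicate 1 had 242 CPM (counts divided by all counts of the library, scaled to 1000000) of Fabp6 and the one labelled jejunum Btnl2-KO replicate 2 had 350, against 0.260 in the one labelled ileum Btnl2-KO replicate 1, which had 172 CPM of Gata4. Btnl2 itself was 5.98 and 14.1 CPM in the first and second of these and 0 to 2.19 CPM in every other Btnl2-KO library of small intestine tissue, IECs and γδ IELs. WT Btnl2 was 26.2 to 104 CPM in small intestine tissue, 25.5 to 62.9 in IECs and 2.44 to 10.9 in γδ IELs. In small intestine tissue, WT replicates 5 and 7 and Btnl2-KO replicate 1 held 83.8, 16.5 and 85.9 CPM of Gata4, against at most 1.96 in the others, and WT replicates 2 and 3 held 869 and 1685 CPM of the colonic carbonic anhydrase Car1, against at most 0.631. These 8 libraries are called libraries that stand apart below. No WT IEC library was among them.

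To show what separates the members, the coding sequences of 6 of them are given (for Defa39 its last 300 bases), 1 or 2 from each of 4 of the sequence groups used below. They were read from the GRCm38 genome and GENCODE annotation and are written 5′ to 3′. Capitals mark the bases of Defa2 that differ from Defa20 and the bases of Defa22 that differ from Defa21.
Defa24: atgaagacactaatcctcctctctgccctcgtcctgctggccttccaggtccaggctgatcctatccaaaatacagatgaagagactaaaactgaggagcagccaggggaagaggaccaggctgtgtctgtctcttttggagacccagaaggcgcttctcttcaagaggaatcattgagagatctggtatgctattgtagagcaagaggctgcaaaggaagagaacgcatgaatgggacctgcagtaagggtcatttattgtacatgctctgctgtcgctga
Defa20: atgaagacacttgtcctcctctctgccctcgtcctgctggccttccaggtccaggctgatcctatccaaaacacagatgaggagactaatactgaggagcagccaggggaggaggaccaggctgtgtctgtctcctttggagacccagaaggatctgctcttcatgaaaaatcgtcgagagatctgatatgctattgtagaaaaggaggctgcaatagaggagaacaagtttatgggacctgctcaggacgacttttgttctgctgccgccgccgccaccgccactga
Defa2: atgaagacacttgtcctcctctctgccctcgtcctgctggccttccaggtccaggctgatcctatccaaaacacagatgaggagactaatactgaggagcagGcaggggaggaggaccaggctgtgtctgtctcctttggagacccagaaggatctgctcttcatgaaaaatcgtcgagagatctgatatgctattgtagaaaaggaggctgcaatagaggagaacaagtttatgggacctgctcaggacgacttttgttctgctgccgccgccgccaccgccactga
Defa21: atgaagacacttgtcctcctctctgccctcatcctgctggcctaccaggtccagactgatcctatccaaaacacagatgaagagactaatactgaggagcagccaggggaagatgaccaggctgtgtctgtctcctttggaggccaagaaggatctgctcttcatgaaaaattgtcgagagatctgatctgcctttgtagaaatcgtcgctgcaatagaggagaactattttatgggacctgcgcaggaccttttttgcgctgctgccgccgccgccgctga
Defa22: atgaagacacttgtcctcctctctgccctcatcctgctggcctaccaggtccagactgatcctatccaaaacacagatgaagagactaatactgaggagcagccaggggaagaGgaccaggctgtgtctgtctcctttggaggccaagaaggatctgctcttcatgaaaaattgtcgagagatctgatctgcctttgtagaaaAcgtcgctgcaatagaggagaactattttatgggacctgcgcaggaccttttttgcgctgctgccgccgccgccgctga
Defa39, bases 52 to 351: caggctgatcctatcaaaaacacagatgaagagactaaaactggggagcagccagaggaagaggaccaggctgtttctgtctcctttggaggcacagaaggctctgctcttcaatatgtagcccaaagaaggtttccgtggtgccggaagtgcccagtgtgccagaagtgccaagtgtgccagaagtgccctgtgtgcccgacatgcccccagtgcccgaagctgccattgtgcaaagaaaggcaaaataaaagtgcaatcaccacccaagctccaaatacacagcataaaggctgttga

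Defa24 lies at chr8:21734494-21735471, plus strand, Defa20 at chr8:21509258-21510237, plus strand, Defa2 at chr8:21378515-21379495, plus strand, Defa21 at chr8:21025545-21026516, plus strand, Defa22 at chr8:21162277-21163249, plus strand, and Defa39 at chr8:21702519-21703645, minus strand. The coding sequence of Defa2 differed from that of Defa20 by 1 base in 288, and that of Defa22 from that of Defa21 by 2 bases in 282. Linking the members whose coding sequences were at least 97% identical gave 7 groups of 2 or more members, of which 4 are each named here after a member. The Defa24 group holds Defa3, Defa17, Defa23, Defa24, Defa30 and Defa31, the Defa20 group holds Defa2, Defa20, Defa32 and Defa33, the Defa21 group holds Defa21 and Defa22, and the Defa5 group holds Defa5, Defa34, Defa35, Defa36, Defa37 and Defa41. The 5 members with coding sequences of 351 bases, Defa29, Defa38, Defa39, Defa42 and Defa43, are described as the CRS1C group, within which Defa29 with Defa38 and Defa42 with Defa43 were linked at 97%. They shared at most 68.3% identity with any other member. Defa26 and Defa40 were the last linked pair. The remaining 5 coding members, this pair included, and the 3 pseudogenes held at most 0.637% of family counts in any WT small intestine tissue, IEC or γδ IEL library. The grouping used sequence alone, but was set after the members' values had been seen.

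Close relatives share reads, and 6 pairs of members had identical coding sequences, Defa17 with Defa3, Defa2 with Defa33, Defa20 with Defa32, Defa23 with Defa31, Defa36 with Defa37, and Defa42 with Defa43. Over the whole transcript, 46.5% of the 33-base windows of Defa24 and 46.3% of those of Defa39 occurred in no other gene's transcript, against 17.1% for Defa21, 9.30% for Defa22 and 0% for Defa2, Defa20, Defa32, Defa33 and Defa42. For windows of 100 bases, the read length the paper names for bulk RNA-seq, Defa24 and Defa39 had 100%. Defa21 then had 59.6%, Defa22 59.7%, Defa20 and Defa32 0.307%, and Defa2, Defa33 and Defa42 0%. The deposited counts are estimates that divide shared reads between genes. Of the member values of 10 or more counts, 100% in tissue, 99.8% in IECs and 77.8% in γδ IELs were not whole numbers, against 23.5%, 22.6% and 8.28% over all genes. The level of a single member of a near-identical pair is therefore uncertain, and the summed groups are given beside the single members.

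The α-defensin genes together held 1.96% to 5.37% of all counts in WT small intestine tissue (median 3.08%, mean 3.45% ± 1.31 SD, n = 7). In WT colon tissue they held 0.000436% to 0.00163% (median 0.000605%, n = 6). In WT IECs the share was 0.501, 0.49 and 0.393% in the 3 duodenal libraries, 1.27, 1.24 and 0.728% in the 3 jejunal libraries and 0.944 and 1.11% in the 2 ileal libraries.  The duodenal IEC libraries thus lay below every jejunal and ileal one, and the jejunal and ileal ranges overlapped. In WT γδ IEL libraries, sorted for a T cell receptor, the share was 0.556, 1.96, 0.563 and 0.579% in duodenum, 0.196, 1.06, 0.196 and 1.81% in jejunum and 3.1, 10.3, 3.6 and 6.29% in ileum. The ileal γδ IEL libraries lay above all duodenal and jejunal ones, and 2 of them exceeded every small intestine tissue library. In all these bulk libraries, fewer cells of a type and less RNA per cell cannot be told apart. No test was made on these shares.

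**Figure D1:**
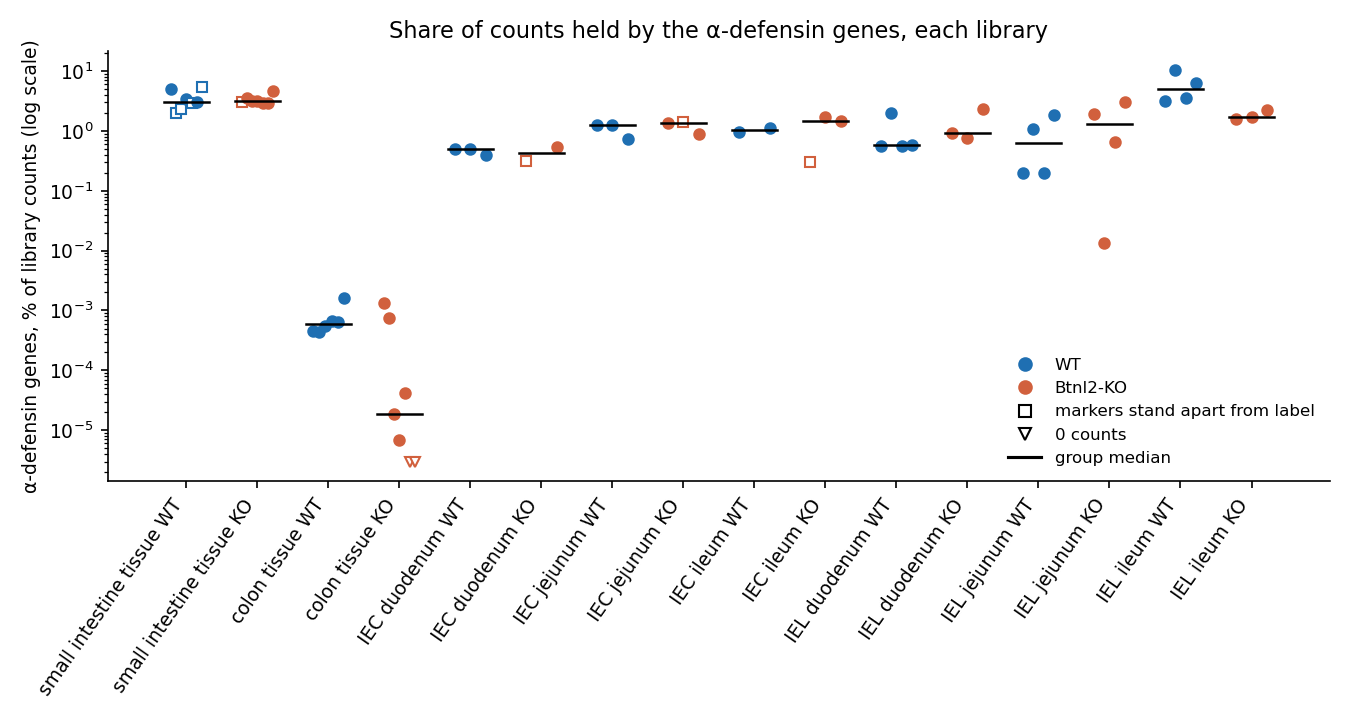
Percent of library counts held by the 31 α-defensin genes (log axis), with 1 point per bulk library, a line at each group's median, open squares for the libraries that stand apart and open triangles at the bottom for 2 colon libraries with 0 counts. WT small intestine tissue lies at 1.96% to 5.37% and WT colon tissue at 0.00163% or below, while the γδ IEL groups spread from 0.0134% to 10.3%.

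Between the tissues, all 28 members tested fell from WT small intestine to WT colon. Defa24 had 2284, 3731 and 9517 CPM (lowest, median and highest of 7) in WT small intestine and 0.262, 0.72 and 1.89 CPM (of 6) in WT colon. Defa2 had 2547, 4854 and 6935 CPM in small intestine and 0.566, 0.974 and 3.25 CPM in colon. Defa21 had 1406, 2384 and 2832 CPM and 0.301, 0.388 and 0.922 CPM. For each of these genes the lowest small intestine library lay far above the highest colon one. From the pooled counts of each group, the small intestine held 6258 times the Defa24 CPM of the colon, 3719.9 times that of Defa2, 5256 times that of Defa17, 5049.9 times that of Defa21, 4949 times that of Defa23, 7987 times that of Defa38, 4326 times that of Defa39 and 11941 times that of Defa42.

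By the edgeR quasi-likelihood test with Benjamini-Hochberg adjustment over all 15162 genes tested, 28 of 28 members were called lower in WT colon (false discovery rate, FDR, below 0.05 and fold change above 1.5), against 15.6% of all genes. For 27 of the 28, every colon library lay below every small intestine library, which held for 8.89% of all genes, and Defa43 was the exception. The median log2 fold change of the members was -12.21, against -0.02 over all genes. The largest fitted changes were those of Defa37, Defa5, Defa42, Defa35 and Defa31. The colon libraries together held no count of Defa35 and less than 1 estimated count of Defa5 and Defa37. Taken as they stand, these estimates put the small intestine level at least 2908-fold higher for Defa35. The bounds were 34006-fold for Defa5 and 61673-fold for Defa37 (from 3 counts over the group). For Defa31, with 1.53 estimated counts in colon, the counting interval of the ratio was 2305 to 68759. Intervals and bounds of this kind cover counting error only. Without the 4 WT small intestine libraries that stand apart, 28 members were called and their median was -12.50.

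Of 8 other secreted Paneth cell products, 7 were also called lower in WT colon, among them Mmp7 (log2 fold change -10.12 ± 0.42 SE, FDR 2.77e-10), Lyz1, a lysozyme (-7.88 ± 0.26, FDR 3.3e-11), and the lectin Itln1 (-9.07 ± 0.63, FDR 4.11e-08). Mptx1, a mucosal pentraxin, was called higher (5.87 ± 1.11, FDR 0.000595). The median of the 8 was -7.49. Of 9 tested antimicrobial genes outside the family, such as the Reg3 lectins, 5 were called lower and 0 higher.

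In level per transcript length, the leading members of WT small intestine tissue were Defa24 at 12345 ± 7237 CPM per kb (mean ± SD, n = 7), Defa2 at 10743 ± 3868, Defa17 at 7331 ± 4938, Defa21 at 5357 ± 1095 and Defa23 at 5165 ± 3499. The spread of each of these reached its neighbours in this order. WT duodenal IECs had another order, led by Defa39 at 1561 ± 578 CPM per kb (n = 3), Defa17 at 1424 ± 253, Defa38 at 1411 ± 465 and Defa24 at 1356 ± 272. These 4 did not differ beyond their spread, and Defa39 and Defa38 are CRS1C members. In WT ileal IECs, Defa2 led at 3333 ± 139 CPM per kb (n = 2), ahead of Defa24 at 2054 ± 59.9 and Defa21 at 1933 ± 430.1. In WT jejunal IECs, Defa2 at 2675 ± 1275 and Defa24 at 2647 ± 1606 CPM per kb (n = 3) were level within their spread.

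Both members of the Defa21 group and Defa2 and Defa20 of the Defa20 group were called higher in ileal than in duodenal WT IECs, while Defa32 and Defa33 were not. Defa21 was 61.5, 31.0 and 86.5 CPM in the 3 duodenal libraries, 691, 704 and 484 CPM in the 3 jejunal libraries and 681 and 935 CPM in the 2 ileal libraries. Its near copy Defa22 was 46.7, 18.0 and 64.9, then 563, 601 and 439, then 568 and 810.3 CPM. Every jejunal and ileal library lay above every duodenal library for both genes. Ileal levels exceeded duodenal ones by a log2 fold change of 3.75 ± 0.35 (SE) for Defa21 (edgeR, FDR 0.000505) and 3.99 ± 0.43 for Defa22 (FDR 0.00107), and jejunal levels by 3.43 ± 0.33 (FDR 0.00351) and 3.68 ± 0.41 (FDR 0.00759).

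Defa2 was 193, 58.1 and 187 CPM in duodenum, 1507, 1396 and 515 CPM in jejunum and 1378 and 1462 CPM in ileum of WT IECs. Its ileal level was higher than the duodenal one by 3.27 ± 0.48 on the log2 scale (edgeR, FDR 0.00483) and its jejunal level by 2.95 ± 0.45 (FDR 0.0246). Defa20, which differs from Defa2 by 1 coding base, was 1.9, 23.8 and 28.6, 289.8, 589 and 525, and 301 and 673 CPM, a difference of 4.73 ± 0.90 for ileum (FDR 0.0149) and of 4.78 ± 0.87 for jejunum (FDR 0.0504, not called). In duodenal replicate 1 its estimate was lower than in the other 2 replicates. Defa32 and Defa33, named here after their values were seen because they are the identical partners of Defa20 and Defa2, moved between extremes within a group. Defa32 was 38.3, 0.0942 and 28.4 CPM in duodenum and 585 and 617 CPM in ileum (log2 fold change 4.75 ± 1.24, FDR 0.0555). Defa33 was 321, 14.0 and 203 CPM in duodenum and 64.4 and 413 CPM in ileum (0.43 ± 1.06). When the 4 were summed before the fit, an alternative chosen after seeing the data, the Defa20 group was higher in ileum than in duodenum by 2.90 ± 0.56 (FDR 0.0155) and the Defa21 group by 3.86 ± 0.39 (FDR 0.000744). In jejunum the Defa21 group was higher by 3.54 (FDR 0.00635), and the Defa20 group had a difference of 2.67 (FDR 0.0674).

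The summed Defa5 group was also higher in ileal than in duodenal WT IECs. Defa5 was 69.8, 57.9 and 65.0 CPM in duodenum, 323, 272 and 209 CPM in jejunum and 276 and 333 CPM in ileum of WT IECs, with a log2 fold change from duodenum to jejunum of 2.07 ± 0.17 (edgeR, FDR 0.00207). Defa34 was 15.8, 11.1 and 14.7, 88.2, 69.6 and 46.5, and 79.7 and 88.0 CPM in the same order, with a difference of 2.56 ± 0.21 from duodenum to ileum (FDR 0.000313) and 2.30 ± 0.19 from duodenum to jejunum (FDR 0.00207). For both genes the duodenal libraries lay below all others. The difference of the summed group was 1.80 ± 0.21 (edgeR, FDR 0.00158).

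The Defa24 and CRS1C groups did not pass the test in the same comparison, apart from 2 CRS1C members. Defa24 was 638, 437 and 629.7 CPM in duodenum, 1796, 1079 and 452 CPM in jejunum and 843 and 879 CPM in ileum of WT IECs, with a log2 fold change from duodenum to ileum of 0.57 ± 0.37 (SE, edgeR FDR 0.469). Defa17 had 669, 559 and 469 CPM in duodenum and 624 and 690.0 CPM in ileum (0.17 ± 0.27), and Defa23 had 388, 391 and 335 and 402 and 415 CPM (0.09 ± 0.20). The ileal libraries of Defa24 and Defa23 lay above the duodenal ones, by 1.52 times on pooled counts for Defa24. Defa39 was 905, 997 and 454 CPM in duodenum, 780.2, 1042 and 510.4 CPM in jejunum and 397 and 357 CPM in ileum, and was the only member whose ileal libraries all lay below the duodenal ones, where 15.7% of all genes did so. Its log2 fold change was -1.13 ± 0.38, which did not pass the edgeR adjustment (FDR 0.127) and was called lower by DESeq2. Defa38 was 485, 664 and 338 CPM in duodenum and 463 and 453 CPM in ileum (-0.18 ± 0.33), and Defa42 was 312, 622 and 247 CPM and 855 and 782 CPM (0.98 ± 0.51, FDR 0.341). The CRS1C members Defa29 and Defa43 were called higher (1.21 ± 0.24, FDR 0.0189, and 1.54 ± 0.39, FDR 0.0489), and they are named because they are the exceptions. Neither was called when summed with its linked member before the fit. The edgeR FDR was 0.741 for Defa29 with Defa38 and 0.0937 for Defa43 with Defa42. The call of Defa43 was lost under 2 other scalings of the libraries.

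Over the family, 9 of 28 members tested were called higher in ileal than duodenal WT IECs and 0 lower by edgeR, against 4.21% of all genes called higher and 2.38% lower. The 9 were Defa2, Defa5, Defa20, Defa21, Defa22, Defa29, Defa34, Defa37 and Defa43. Before adjustment, 17 of the 28 had p below 0.05. DESeq2 called 12 higher (5.88% of all genes) and 1 lower (4.36%). With all 16 IEC libraries in one edgeR fit, 0 members and 0% of all genes were called in ileum or jejunum against duodenum. Without the 3 IEC libraries that stand apart, a fit chosen after seeing the data, 9 members (9.95% of all genes) and 8 members (1.72%) were. The median log2 fold change was 1.07 for the members and 0.01 for all genes. For 20 members both ileal libraries lay above all 3 duodenal ones, where 19.6% of all genes did so. From duodenum to jejunum, 7 of 28 were called higher, against 0.452% of all genes, with a median of 1.42 against 0.02, and for 16 members all jejunal libraries lay above the duodenal ones (7.82% of all genes). DESeq2 called 14 higher (1.81% of all genes). Between ileum and jejunum edgeR called 0 of 28 members (0.644% of all genes in either direction), 3 passed 0.05 before adjustment and DESeq2 called 0 (1.29% of all genes higher and 0.904% lower). The comparisons share the duodenal or jejunal libraries and are not independent. With 2 ileal libraries, 6 to 12 members were called in ileum against duodenum when 1 WT library was left out, the lowest number without ileal replicate 2. From duodenum to jejunum 5 to 12 were called, the highest number without duodenal replicate 2.

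As a share of the family's own counts, the Defa20 and Defa21 groups together held 13.2, 2.96 and 15.2% in the WT duodenal IEC libraries, 31.7, 29.7 and 35.6% in jejunum and 37.9 and 44.3% in ileum. In WT small intestine tissue they held 32.7% to 46.3% (median 43.6%). In WT γδ IEL libraries they held 4.14, 1.65, 3.79 and 0.856% in duodenum, 21.0, 26.9, 28.3 and 13.6% in jejunum and 39.0, 35.6, 36.9 and 37.3% in ileum. In IECs and in γδ IELs alike, the duodenal libraries lay below the jejunal ones and the jejunal ones below the ileal ones. The Defa24 group went from a median of 40.1% in duodenal to 24.0% in ileal WT IECs and from 71.1% to 39.9% in WT γδ IELs. The CRS1C group went from 40.5% to 25.6% and from 21.0% to 14.7%. The shares of a library sum to the whole, so the groups' shares are not independent of each other.

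**Figure D2:**
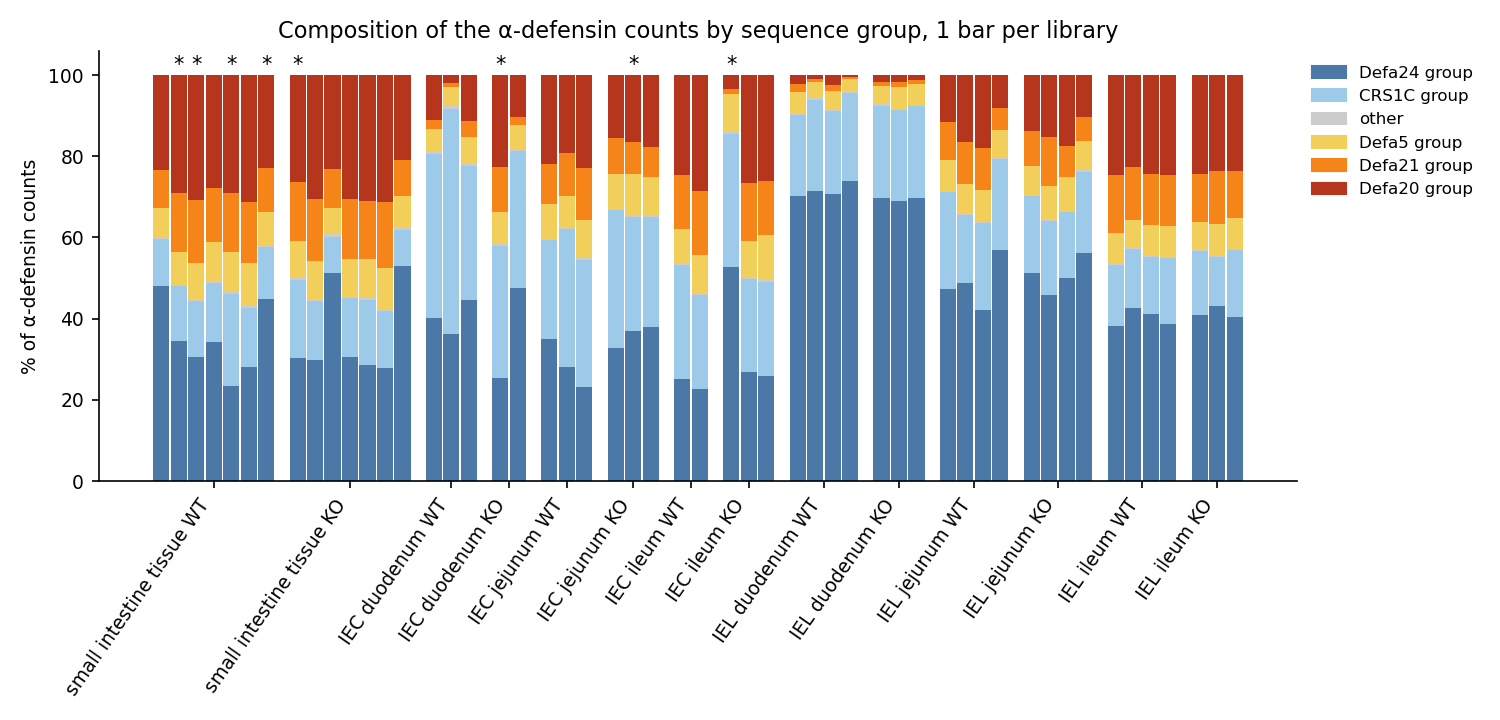
Percent of the α-defensin counts of each bulk library that fell in each sequence group (colours), with 1 bar per library, colon left out, and asterisks above the libraries that stand apart. The red and orange parts, the Defa20 and Defa21 groups, take 0.856% to 15.2% in the WT duodenal libraries and 35.6% to 44.3% in the WT ileal libraries of IECs and γδ IELs.

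In IECs, 2 of the 3 libraries that stand apart also differed from their partners in this composition. The library labelled duodenum Btnl2-KO replicate 1 had 33.7% of its α-defensin counts in the Defa20 and Defa21 groups, against 12.3% in its partner. The one labelled ileum Btnl2-KO replicate 1 had 4.77%, against 40.9% and 39.4% in the other ileal Btnl2-KO libraries. Its Defa21 was 24.9 CPM, against 1316 and 1045 CPM. In both, the α-defensin composition went with the Fabp6 and Gata4 levels of the library and not with its label. The jejunal Btnl2-KO library that stands apart had 24.3%, against 24.5% and 25.1% in its partners. In small intestine tissue the 5 libraries that stand apart held 33.6% to 46.3% and the other 9 held 29.9% to 47.5%, so the ranges overlapped. WT replicates 5 and 7 and Btnl2-KO replicate 1, set apart by Gata4, held 43.7, 33.6 and 40.8%. Their Gata4 level thus did not go with a share below that of the other 9.

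A few other Paneth cell genes were also called higher in ileum than in duodenum of WT IECs. Of the 8 other Paneth cell products, 1, the phospholipase Pla2g2a, was called higher in ileum than in duodenum (log2 fold change 1.52 ± 0.27, edgeR FDR 0.0105), with a median of 0.63. Mmp7 had 0.69 ± 0.25 (FDR 0.151) and Lyz1 0.56 ± 0.29 (FDR 0.346). Of 10 genes of Paneth cell specification and function, 3 were called higher, the secretory lineage factors Atoh1 (1.38 ± 0.19, FDR 0.00369) and Spdef (1.43 ± 0.19, FDR 0.00271) and the Wnt effector Tcf7l2 (1.13 ± 0.25, FDR 0.0268), and the median was 0.71. From duodenum to jejunum, 1 product, the ribonuclease Ang4, was called higher (1.13 ± 0.17, FDR 0.0246) and 0 of the 10 regulators were, though 5 had an unadjusted p below 0.05. Among 10 pan-epithelial genes 0 were called between ileum and duodenum, with 1 at an unadjusted p below 0.05. Whether the segments' crypt content differed was not tested.

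Because members of a group share more than their coding sequence, the 250 bases upstream of the annotated start are shown for 1 member of each of 4 kinds. They were taken from RefSeq (GRCm38.p6), are written 5′ to 3′ on the plus strand and come from chr8:21509008-21509257 for Defa20, chr8:21025295-21025544 for Defa21, chr8:21054790-21055039 for Defa23 and chr8:21064788-21065037 for Defa35.  Capitals mark ATCAAAG, the letters bound by Tcf factors of the Wnt pathway, and TATAAA.
Defa20 upstream: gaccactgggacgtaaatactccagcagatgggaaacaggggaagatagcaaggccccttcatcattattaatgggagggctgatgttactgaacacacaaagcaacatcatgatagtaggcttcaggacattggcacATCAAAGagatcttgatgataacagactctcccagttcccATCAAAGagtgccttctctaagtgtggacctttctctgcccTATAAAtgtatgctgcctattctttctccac
Defa21 upstream: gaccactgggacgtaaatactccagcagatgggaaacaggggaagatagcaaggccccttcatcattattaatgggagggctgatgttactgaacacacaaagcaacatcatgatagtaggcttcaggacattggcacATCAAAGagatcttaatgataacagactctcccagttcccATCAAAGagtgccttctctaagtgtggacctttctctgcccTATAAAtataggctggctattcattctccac
Defa23 upstream: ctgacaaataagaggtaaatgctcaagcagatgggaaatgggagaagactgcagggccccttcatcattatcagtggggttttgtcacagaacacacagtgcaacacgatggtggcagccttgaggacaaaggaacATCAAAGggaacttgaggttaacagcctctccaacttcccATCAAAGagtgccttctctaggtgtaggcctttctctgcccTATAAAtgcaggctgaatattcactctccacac
Defa35 upstream: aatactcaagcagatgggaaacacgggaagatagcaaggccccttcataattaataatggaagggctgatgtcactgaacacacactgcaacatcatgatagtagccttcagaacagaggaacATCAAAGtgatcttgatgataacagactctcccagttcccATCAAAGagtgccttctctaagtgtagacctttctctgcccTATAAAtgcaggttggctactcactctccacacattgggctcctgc

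RefSeq held an upstream sequence for 16 of the 31 members. ATCAAAG, searched on both strands, occurred in 13 of the 16 (81.2%), against 3.21% of 32851 mouse promoter windows of the same length. TATAAA occurred in 15 of the 16 (93.8%), against 12.4%. The promoters of a duplicated family are not independent of each other, and a match of letters is a description, not a site in use. The first base of ATCAAAG lay at -112 and -72 from the start in Defa2, Defa20, Defa21 and Defa22, at -110 and -70 in Defa32, at -114 and -74 in Defa23 and Defa31, and at -127 and -87 in Defa35. In Defa41 it lay at -155 and -115. A single copy lay at -84 in Defa28, at -142 in Defa30 and at -127 in Defa36 and Defa37. ATCAAAG was not found in the windows of the CRS1C members Defa38, Defa42 and Defa43.

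The upstream sequences of Defa2, Defa20, Defa21, Defa22 and Defa32 were 96.4% to 100% identical and at most 80.8% identical to that of any other member. Their log2 fold changes from duodenum to ileum were 3.27 to 4.75 in WT IECs and 6.25 to 9.45 in WT γδ IELs. Defa35, Defa36 and Defa37, 98% to 100% identical upstream, had 0.47 to 1.57 and 3.18 to 5.85. Defa23 and Defa31, identical upstream, had 0.09 and 0.60 in WT IECs. Defa38, Defa42 and Defa43 had -0.18 to 1.54. The 5 members with the largest ileal differences in WT IECs are the same 5 that share this upstream sequence, but they also share coding sequence within 2 groups and so reads, and the relation was not tested. Defa33, of the Defa20 group, had no upstream sequence to compare. Its log2 fold changes from duodenum to ileum were 0.43 in WT IECs and 7.73 in WT γδ IELs.

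In the γδ IEL libraries, members of the Defa20 and Defa21 groups also differed between segments. Defa21 was 59.3, 73.9, 43.6 and 11.5 CPM in the 4 WT duodenal libraries, 114, 564, 97.1 and 551 CPM in jejunum and 2298, 6982, 2429.5 and 4159 CPM in ileum. Defa2 was 59.9, 96.2, 72.4 and 23.0 CPM in duodenum, 100.1, 742, 126 and 668 CPM in jejunum and 2428, 8157, 2671 and 4863 CPM in ileum. Both rose at each step with no overlap between segments. All jejunal libraries lay above all duodenal ones for 24.2% of all genes, and all ileal above all jejunal ones for 7.91%. Defa32 was 2.32, 6.8, 3.24 and 0, then 6.81, 122, 41.5 and 77.8, then 1238, 2963, 1625 and 2648 CPM. Pooled counts of Defa32 were 632 times higher in ileum than in duodenum, those of Defa33 196 times, of Defa20 99.4 times, of Defa22 97.5 times, of Defa21 80.0 times and of Defa2 68.1 times. Defa32 and Defa20 have identical coding sequences, as have Defa33 and Defa2, so the ratio of each single one is uncertain. For Defa42 the ratio was 6.25, for Defa24 4.06 and for Defa39 1.97.

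By edgeR over the 12 WT libraries, the log2 fold change from duodenum to ileum in γδ IELs was 9.45 ± 1.03 (SE) for Defa32 (FDR 0.00021), 7.73 ± 0.80 for Defa33 (FDR 0.000177), 6.81 ± 0.89 for Defa20 (FDR 0.000735), 6.76 ± 0.85 for Defa22 (FDR 0.000534) and 6.47 ± 0.79 for Defa21 (FDR 0.000466). Defa24 had 1775, 6449, 1865 and 1835 CPM in duodenum, 481, 2695, 442 and 5107 CPM in jejunum and 6349.5, 23644, 7889 and 12861 CPM in ileum, with a duodenal library, replicate 2, above an ileal one, and a difference of 2.17 ± 0.75 (FDR 0.211) that did not pass. Defa39 had 365, 1509, 426 and 413 CPM in duodenum and 812, 2454, 867 and 1468 CPM in ileum (1.13 ± 0.69, FDR 0.567). Of 24 members tested, 11 were called higher in ileum than in duodenum, against 1.08% of all genes. They were the Defa20 and Defa21 groups, Defa5, Defa34, Defa35 and Defa37 of the Defa5 group, and Defa29. Summed with its linked member Defa38, Defa29 had 2.22 ± 0.75 (edgeR, FDR 0.198) and was not called. The median was 3.02 for the members and -0.01 for all genes. For 16 members all ileal libraries lay above all duodenal ones (2.29% of all genes).

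From duodenum to jejunum, 6 of 24 members were called higher, against 10.4% of all genes, and they were the 6 members of the Defa20 and Defa21 groups. The same 6 had all jejunal libraries above all duodenal ones, where 24.2% of all genes did so. Among them Defa32 had 4.12 ± 0.84 (edgeR, FDR 0.00362) and Defa21 2.63 ± 0.66 (FDR 0.00962). The median over the 24 was 0.15, against 0.02 over all genes, and -0.66 without jejunal replicate 4. From jejunum to ileum, 23 of 24 were called higher, against 11.4% of all genes, with a median of 2.96 against 0.01. The largest changes were Defa32 (5.33 ± 0.85, FDR 0.00378), Defa33 (4.63 ± 0.69, FDR 0.00378), Defa35 (4.23 ± 0.62, FDR 0.00378), Defa22 (3.94 ± 0.74, FDR 0.00462) and Defa20 (3.93 ± 0.77, FDR 0.00489). Defa24 was also higher (2.79 ± 0.76, FDR 0.015), and Defa39 was the member not called (1.89 ± 0.70, FDR 0.0532). For 19 members all ileal libraries lay above all jejunal ones (7.91% of all genes). Without ileal replicate 2, 14 members were called from jejunum to ileum. With all 22 γδ IEL libraries in one fit 11 were (10.7% of all genes in either direction).

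**Figure D3:**
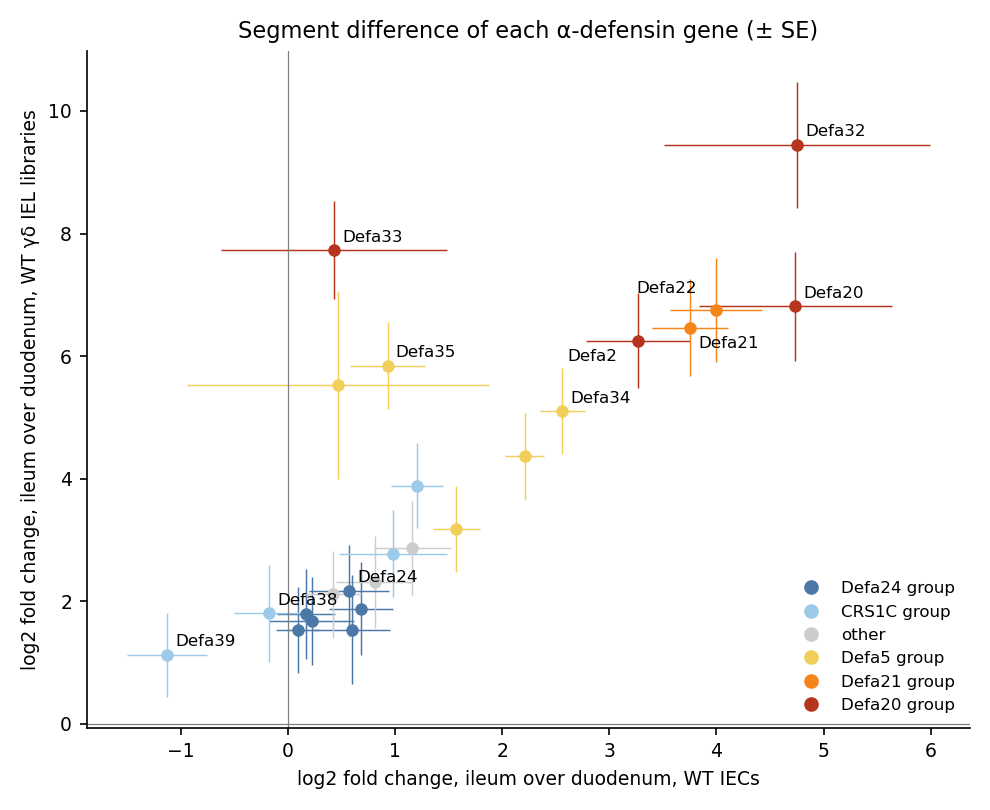
Log2 fold change from duodenum to ileum of each α-defensin gene tested in both fractions, in WT IECs (horizontal axis) and WT γδ IEL libraries (vertical axis), with bars of 1 SE and colours for the sequence groups. Defa2, Defa20, Defa21, Defa22 and Defa32 lie at 3.27 to 4.75 and 6.25 to 9.45, while Defa24 lies at 0.57 and 2.17 and Defa39 at -1.13 and 1.13.

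Other Paneth cell products were present in the γδ IEL libraries as well. The 8 products summed to 1149, 5967, 2547 and 1504 CPM in WT duodenum, 913, 4560.3, 813 and 8446 CPM in WT jejunum and 8582, 28052, 10423 and 24992 CPM in WT ileum, against 4669.9, 4081 and 3921 CPM in WT duodenal and 6422 and 5811 CPM in WT ileal IECs. In each WT segment, the γδ IEL library with the largest α-defensin share also had the largest sum. From jejunum to ileum 6 of the 8 were called higher (edgeR, median log2 fold change 2.69), from duodenum to ileum 3 (median 2.90), among them Mmp7 (2.94 ± 0.64, FDR 0.0284), and from duodenum to jejunum 0, with 0 at an unadjusted p below 0.05.  The 10 pan-epithelial genes summed to 2976 to 4557 CPM in WT duodenal, 2075 to 5849 CPM in jejunal and 3226 to 7688 CPM in ileal γδ IEL libraries, against 7643 to 14146 CPM in all IECs. The 10 γδ IEL genes, such as Cd3e, Trdc and Gzma, summed to 31682 to 77039.5 CPM in the γδ IEL libraries and to 28.1 to 344 CPM in IECs. What part epithelial RNA had in the segment differences of the γδ IEL libraries was not tested.

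**Figure D4:**
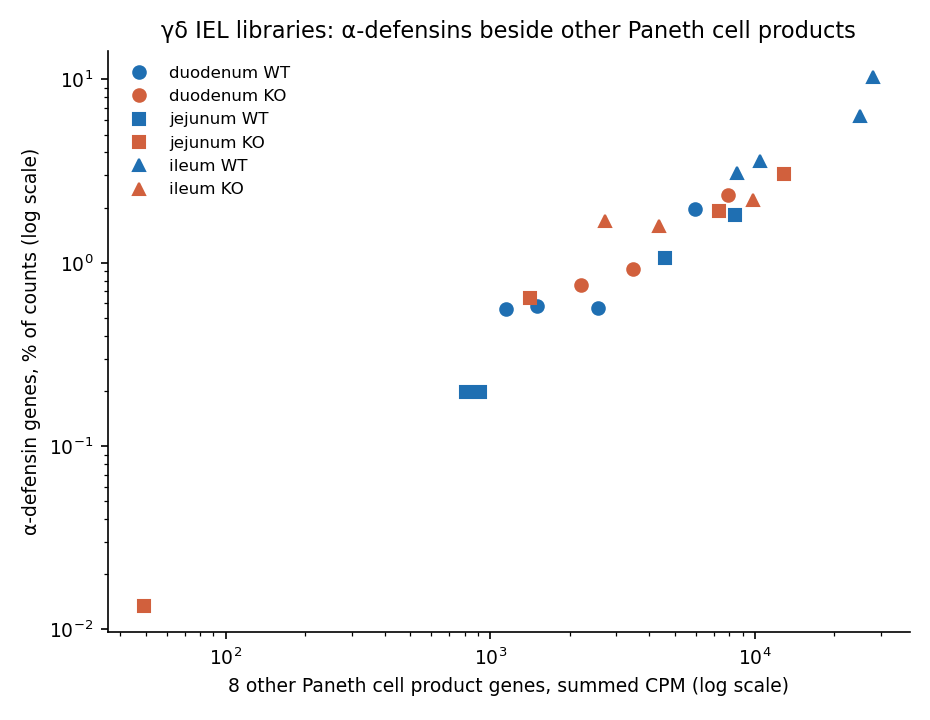
α-Defensin percent of counts (vertical, log axis) against the summed CPM of 8 other Paneth cell product genes (horizontal, log axis) in the 22 γδ IEL libraries, with shapes for segments and colours for genotypes. The lowest library, jejunum Btnl2-KO replicate 2, is at 49.3 CPM and 0.0134%, and the highest, a WT ileal one, at 28052 CPM and 10.3%.

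Btnl2-KO and WT mice were compared within each tissue and segment. In small intestine tissue the family held 2.97% to 4.61% of counts in Btnl2-KO (median 3.13%, mean 3.36% ± 0.586 SD, n = 7), inside the WT range. Defa24 had 3408, 4399.9 and 9879 CPM (lowest, median and highest), Defa2 had 4056, 4865 and 5653 CPM, and Defa21 had 1414, 2413 and 2936 CPM. All 3 overlapped the WT values. EdgeR called 0 of 28 members (0.0202% of all genes), with 1, Defa35 at -0.42 ± 0.19, below 0.05 before adjustment, and DESeq2 called 0 (1.02% of all genes higher and 0.168% lower). The log2 fold changes ran from -0.42 to 0.52, with 14 members above and 14 below 0. Without the 5 libraries that stand apart, 24 of the 28 were below 0 with a median of -0.20, and 0 were called.

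In colon tissue the α-defensin counts of the 7 Btnl2-KO libraries summed to 284, 105, 3, 1, 7, 0 and 0 estimated counts, against 74.5 to 253 in the 6 WT libraries. A count of 0 allows a share of up to 1.78e-05% and 2.12e-05% in the last 2. The first 2 Btnl2-KO libraries lay within the WT range or above it and the other 5 below it. Only Defa2 and Defa24 had enough counts to be tested, and edgeR called 0 of the 2 (0.0269% of all genes), with Defa2 at -2.18 ± 0.92 (FDR 0.972). DESeq2 called 1, lower (0.0403% of all genes).

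In IECs the Btnl2-KO share was 0.32 and 0.548% in duodenum, 1.37, 1.41 and 0.889% in jejunum and 0.3, 1.68 and 1.48% in ileum, where the first duodenal, second jejunal and first ileal values belong to the libraries that stand apart. EdgeR called 0 of 25 members in duodenum and 0 of 28 in jejunum (0% of all genes in each) and 0 of 28 in ileum (0.00774%), and DESeq2 called 0 in each, where it called 0% of all genes higher and 0.00795% lower in duodenum, 0.00797% and 0% in jejunum, and 0.00774% each way in ileum. At an unadjusted p below 0.05 there were 1, 4 and 0. The medians were -0.07, 0.42 and 0.14. Without the library that stands apart, the medians were 0.09, 0.20 and 0.56. In ileum 18 members then had an unadjusted p below 0.05 and 0 were called. Defa2 was 69.0, 2212 and 2794 CPM in the ileal Btnl2-KO libraries, the first of which stands apart, against 1378 and 1462 CPM in WT.

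Ileal γδ IEL libraries of Btnl2-KO mice held 1.58, 1.69 and 2.21% α-defensin counts (mean 1.83% ± 0.340 SD, n = 3), all below the WT values of 3.1, 10.3, 3.6 and 6.29% (5.82% ± 3.29, n = 4). Defa24 was 3641, 3399 and 4813 CPM in Btnl2-KO, Defa2 was 1295, 1259 and 1748 CPM, Defa21 was 993, 1139 and 1329 CPM and Defa39 was 499.7, 257 and 637 CPM. For each of these members, all 3 libraries lay below the 4 WT libraries. The log2 fold changes were -1.72 ± 0.49 (SE) for Defa24, -1.69 ± 0.46 for Defa2, -1.80 ± 0.44 for Defa21 and -1.66 ± 0.45 for Defa39. None of them passed the edgeR adjustment, with FDR of 0.432 to 0.700 over the 24 members tested.

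Over the family, edgeR called 0 of 24 members in ileal γδ IELs (0% of all genes), 23 passed 0.05 before adjustment, and DESeq2, the tool named in the study's methods, called 22 lower, against 1.74% of all genes. The median was -1.70, against 0.06 over all genes, and for 22 members all Btnl2-KO libraries lay below all WT ones, where 3.79% of all genes did so. Among other epithelial genes in the same comparison, edgeR called 0 of 8 Paneth cell products and 0 of 10 pan-epithelial genes. The 8 Paneth cell products summed to 4342, 2726 and 9851 CPM in Btnl2-KO, with a median log2 fold change of -1.58 and 6 at an unadjusted p below 0.05. The 10 pan-epithelial genes summed to 830.3 to 3733 CPM, against 3226 to 7688 CPM in WT, with a median of -1.37 and 7 at an unadjusted p below 0.05. With the mean of the pan-epithelial genes as a covariate, the median of the α-defensins was -1.37, 17 had an unadjusted p below 0.05 and 0 were called. The Defa20 and Defa21 groups together held 36.1, 36.7 and 35.3% of α-defensin counts in Btnl2-KO and 39.0, 35.6, 36.9 and 37.3% in WT, and the CRS1C group 11.9% to 16.6% and 14.0% to 16.3%. The ranges overlapped, and the differences were not tested. Epithelial content and α-defensin level per epithelial cell cannot be told apart in these libraries.

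In duodenal and jejunal γδ IELs the medians had the other sign. The Btnl2-KO share was 0.924, 0.753 and 2.34% in duodenum and 1.93, 0.0134, 0.643 and 3.03% in jejunum. EdgeR and DESeq2 called 0 of 21 members in duodenum (0.00789% of all genes by edgeR, and 0.00789% higher and 0.0237% lower by DESeq2) and 0 of 23 in jejunum (0.00794% by edgeR, and 0.00794% each way by DESeq2), with 0 at an unadjusted p below 0.05 in each, and medians of 0.56 and 0.96. The jejunal values span from 0.0134% to 3.03%, and without the jejunal Btnl2-KO replicate 4 the median was 0.25. Without duodenal Btnl2-KO replicate 3 the duodenal median was -0.07.  The test of the genotype difference between segments called 0 of 24 members in ileum against duodenum (lowest FDR 0.716, median difference -2.23, 0 at an unadjusted p below 0.05) and 0 in ileum against jejunum (lowest FDR 0.308, median -2.67, 8 at an unadjusted p below 0.05), where 0% of all genes passed in each.

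Single-cell libraries of γδ IELs showed in which barcodes the α-defensin transcripts lay. With 1 library per segment and genotype there is no test, and the intervals cover counting error only. Transcripts were counted as unique molecular identifiers (UMIs). Over barcodes that had 500 or more genes and no more than 10% of UMIs from mitochondrial genes, the family's CPM of all UMIs was 271 (95% Poisson interval 265 to 278) in duodenum WT, 3983 (3955 to 4012) in jejunum WT and 1026 (1012 to 1040) in ileum WT. In Btnl2-KO it was 3.86 (3.06 to 4.81), 37.2 (34.6 to 40.0) and 8639 (8605 to 8674). Without the barcodes of more than 100 α-defensin UMIs, the ileal values were 18.7 in Btnl2-KO and 25.2 in WT, so the order of the genotypes there turned on those barcodes.

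These totals rested on a few barcodes. In WT, a single barcode held 94.4% of the α-defensin UMIs of the duodenal library, 98.3% of the jejunal one and 95.5% of the ileal one, and 3 barcodes held 99.7% in ileum Btnl2-KO. Only 0 to 5 of the 3589 to 4647 barcodes per library had more than 100 α-defensin UMIs. The top barcode of ileum Btnl2-KO had 120658 α-defensin UMIs among 160500, or 75.2% of its RNA, with 10697 UMIs of Lyz1. That of jejunum WT had 74598 of 108380 (68.8%), that of ileum WT 20119 of 41742 (48.2%) and that of duodenum WT 5599 of 38285 (14.6%). Each of these 4 barcodes had 1 to 3 UMIs of Cd3 genes or Trdc. Doublets were not called. Libraries shared 19 to 31 barcode sequences pairwise.

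**Figure D5:**
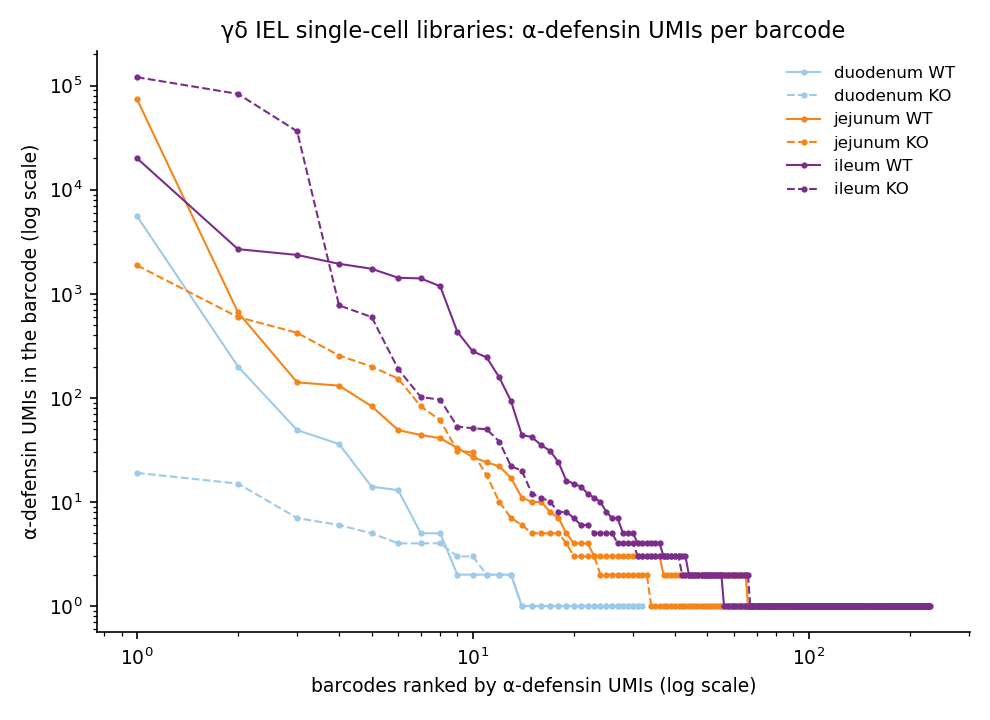
α-Defensin UMIs in each barcode (vertical, log axis) by rank within its library (horizontal, log axis), for all barcodes with at least 1 α-defensin UMI before filtering, with colours for segments and dashes for Btnl2-KO. The curves fall from a top barcode of up to 120658 UMIs to long tails of 1 UMI, except duodenum Btnl2-KO, whose top barcode has 19.

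An α-defensin UMI was found in 0.690% to 6.02% of filtered barcodes. Over all barcodes before filtering, and leaving out those with more than 100 such UMIs, barcodes with a Cd3 or Trdc UMI carried one in 0.680% to 5.97% of cases (median depths 4862 to 5460.5 UMIs) and those without in 4.17% to 37.0% (median depths 3246.5 to 5660.5). The barcodes without numbered only 27 to 57 per library. The exact interval of their share was 0.509% to 14.3% in duodenum Btnl2-KO, the lowest, and 19.4% to 57.6% in ileum Btnl2-KO, the highest. In duodenum Btnl2-KO it overlapped the interval of the barcodes with a Cd3 or Trdc UMI (0.494% to 1.06%). How α-defensin UMIs came into barcodes with a Cd3 or Trdc UMI was not tested. Among filtered barcodes, those of 100 or fewer α-defensin UMIs held the family at 3.86 to 31.1 CPM.

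The composition of the single-cell UMIs was taken over all barcodes before filtering. The Defa21 group held 0.134% of α-defensin UMIs in duodenum WT, 5.15% in jejunum WT and 9.85% in ileum WT. In Btnl2-KO it held 1.06% (1 UMI) in duodenum, 9.69% in jejunum and 26.1% in ileum. A single barcode held 94.1%, 97.9% and 58.3% of the α-defensin UMIs of the WT libraries in the same order. These shares thus compare single barcodes in large part. In the top barcode of duodenum WT, Defa24 was 57.7% and Defa39 24.9% of α-defensin UMIs, and in that of ileum WT they were 59.0% and 24.2%. The Defa20 group held at most 0.107% in any library, against 24.7% and 28.6% in the 2 WT ileal IEC libraries. Defa2 and Defa42, among the 8 leading members of the bulk tables, had 0 to 17 UMIs each in any library. The bulk tables divide shared reads between near-identical members, and the handling of such reads in the single-cell tables was not tested, so the 2 kinds of table are not comparable member by member. Defa4 and Defa6 had rows only in the single-cell tables, with 0 UMIs in all 6 libraries.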

How the data were processed

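Bulk RNA-seq tables of tissue, IECs and γδ IELs hold expected counts that the authors made with RSEM in ArrayStudio from reads mapped to a customized mouse genome, with only sense-strand exon reads counted. Per the submitters' processing notes the build was GRCm38. The single-cell tables hold UMI counts per barcode as deposited by the authors (10x Chromium 5′ kit, Cell Ranger). Expected counts were rounded and tested with edgeR 4.0.16 (quasi-likelihood, TMM, genes kept if 10 or more counts were reached in a number of libraries equal to the smaller group's size, Benjamini-Hochberg adjustment over all genes tested), and a gene was called where FDR fell under 0.05 with a change of over 1.5 times, which are the limits of the study's methods. DESeq2 1.42.0 was the alternative tool. R 4.3.3, limma 3.58.1, Python 3.11.15, pandas 2.3.3, scipy 1.17.1, Biopython 1.88 and matplotlib 3.10.9 were used, and the fits were checked on simulated data. CPM divides a count by all counts of its library.

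Identifiers were matched to symbols through RefSeq (24375 of 24475), transcripts through GENCODE (31 of 31 members, of which 28 had a coding sequence), and 39 single-cell rows to 33 symbols. Of the bulk columns, 1 matched no labelled sample and was not used. The labels carry no replicate numbers, so replicates were numbered in accession order. Single members are named by a rule: the 8 with the largest mean share of family counts in WT small intestine tissue and WT IECs (Defa24, Defa2, Defa17, Defa42, Defa39, Defa23, Defa21 and Defa38), and up to 5 called members per direction and comparison with the largest log2 fold change. Members outside it are named where they are identical partners or exceptions, chosen after their values were seen. The members and lists were chosen with earlier results of these data known. The fits without libraries that stand apart and the summing of near-identical members were chosen after seeing the data. No pair of libraries of a group was alike within sampling noise (lowest chi-square per gene 5.08). A library's total sets the precision of its counts, and the intervals cover counting error only.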

Additional observations from a re-analysis of the deposited data

Results flagged for a closer look

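In 3 of 8 groups of 4 to 7 libraries, the library with the largest α-defensin share of counts lay far from the others by Dixon's gap test, which chance does in about 1 in 20 groups. The share of α-defensin counts in the Defa20 and Defa21 groups, tested in 6 groups, gave 0 such libraries. In WT duodenal γδ IELs the library with 1.96% stood above the other 3 (gap over range 0.984). In WT colon tissue the library with 0.00163% stood above the other 5 (0.803). In Btnl2-KO small intestine tissue the library with 4.61% stood above the other 6 (0.651).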

How the results depend on the processing

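No called α-defensin gene changed direction under any alternative run. The median over the members, where 0 were called, changed sign in Btnl2-KO against WT in duodenal IECs (-0.07, and 0.07 without a low-count filter, 0.02 with all IEC libraries and 0.09 without the library that stands apart) and, with 1 library left out, in small intestine tissue (there also under DESeq2 and relative log expression scaling), ileal IECs and duodenal γδ IELs. With all 16 IEC libraries in one fit, 0 α-defensin genes were called in WT ileum against duodenum and 0 in jejunum against duodenum, against 9 and 8 in one fit without the 3 IEC libraries that stand apart. DESeq2 called 14 in WT IEC jejunum against duodenum, 1 in colon Btnl2-KO against WT and 22 in ileal γδ IEL Btnl2-KO against WT. With all 22 γδ IEL libraries in one fit 11 were called in ileum against jejunum. With all barcodes, the family's CPM of UMIs was 184 in jejunum Btnl2-KO and 1654 in ileum WT. Leaving out 1 library at a time gave 28 to 28 called members in colon against small intestine, 6 to 12, 5 to 12 and 0 to 0 in the WT IEC comparisons (ileum against duodenum, jejunum against duodenum, ileum against jejunum), 10 to 13, 6 to 8 and 14 to 24 in the same WT γδ IEL comparisons, and 0 to 0 in every comparison of genotypes it was run for. For the named members, DESeq2 added 12 calls, no low-count filter 2, the fits of all libraries lost 15, and of 1256 values of such members in fits without 1 library 9 gained and 17 lost a call. Relative log expression scaling and scaling without the α-defensins each ended the call of Defa43 in WT IEC ileum against duodenum and changed no other member's call, and no minimum fold change and the epithelial covariate changed none. No paired analysis was possible because the labels carry no replicate numbers. In colon few counts stand behind each member, and the single-cell values rest on 1 library per group and a few barcodes.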

Other observations

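Defa43 had 0 counts in all 22 γδ IEL libraries, while its identical partner Defa42 had 2685 to 8034 CPM in the WT ileal ones. In WT IECs both were listed, Defa43 at 158 to 277 CPM in duodenum and 620 to 657 CPM in ileum. How the γδ IEL table divided their shared reads was not tested. Defa-ps12 and Defa-ps13 had 0 counts in every library of the 3 bulk tables.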
